A study of Mus musculus with 5 samples.

Results

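The comparison is between colon tissue taken after the mutagen azoxymethane (AOM) alone, the W2 library, and untreated colon, the W0 library. They are 2 of the 5 libraries of a mouse time series of colitis-associated colon cancer. The W2 mice had AOM at 8.5 mg per kg, injected into the abdomen on days 1 and 8, and the labels give this library no dextran sulfate sodium (DSS), the colitis-inducing agent that the W5, W8 and W11 libraries also received at 1.5%. The W0 mice had neither agent and drank distilled water. All mice were wild-type C57BL/6 males between 8 and 12 weeks of age, kept under pathogen-free conditions. Each library is the single one of its time point. For each group 3 mice were selected, and no statement on pooling is given. The control is described as taken before administration and also as killed together with the treated mice, so a difference in age between W2 and W0 cannot be told apart from the treatment. No value below has a replicate check, so there is no test. A gene is said to have risen, fallen or changed where it differed by 2-fold or more.

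AOM is a procarcinogen that is oxidised by cytochrome P450 enzymes to methylazoxymethanol and then methylates DNA, with O6-methylguanine as a mispairing lesion. That lesion is removed by the methyltransferase Mgmt, other methylated bases are cut out by base excision repair, and mispairs are read by mismatch repair and can lead to arrest or death through p53. In the mouse model AOM is followed by DSS, and tumours form in the distal colon. The colon wall holds a crypt epithelium of absorptive colonocytes, mucus-making goblet cells and hormone-secreting cells, over a mucosa with lymphocytes, plasma cells and fibroblasts, and a muscle coat with enteric neurons between its layers.

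The W2 library held 14640851 counted reads and 20500 genes with at least 1 read, and the W0 library held 13778653 counted reads and 20111 such genes. Levels are counts per 1000000 counted reads (CPM), and a difference is log2(CPM + 1) at W2 minus the same at W0, which understates the change of low genes. A ratio is on the CPM scale, and its 95% interval covers counting error only. Of 52382 genes in the table, 14720 had a mean of at least 1 CPM over the 5 libraries. The labels name colon as the tissue and intestinal epithelial cells as the cell type. The epithelial adhesion gene Epcam was at 1954 CPM in the W2 library and 1824 CPM in the W0 library, and the smooth muscle myosin Myh11 was at 2528 CPM at W2 and 1635 CPM at W0, so the libraries were not of epithelial cells alone. In such bulk tissue, fewer cells of a type and less RNA per cell cannot be told apart.

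At W2, 502 genes were at least 2-fold higher than at W0, which is 3.41% of those tested, and 623 were at least 2-fold lower, which is 4.23%. In either direction 1125 genes, or 7.64%, passed 2-fold. The counting interval of each of them excluded a ratio of 1, which a 2-fold call on this scale entails at this depth, so it adds no support. A pseudocount of 0.1 in place of 1 gave 865 higher and 947 lower genes, and one of 5 gave 169 higher and 324 lower. The median difference of all genes was -0.02 with an SD of 0.59, so each list below is read against a median near 0 and against these shares. At 4-fold or more, 98 genes were lower and 26 were higher. Immunoglobulin and T cell receptor segments were 85 of those 98 and 0 of the 26, so among all other genes 13 were lower and 26 higher at this size. Across genes the difference was slightly higher in AT-rich and in short genes (Spearman rho of -0.16 with GC content and -0.13 with exon length over 14711 genes), and the part of this in the results was not tested except where a value is given.

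**Figure D1:**
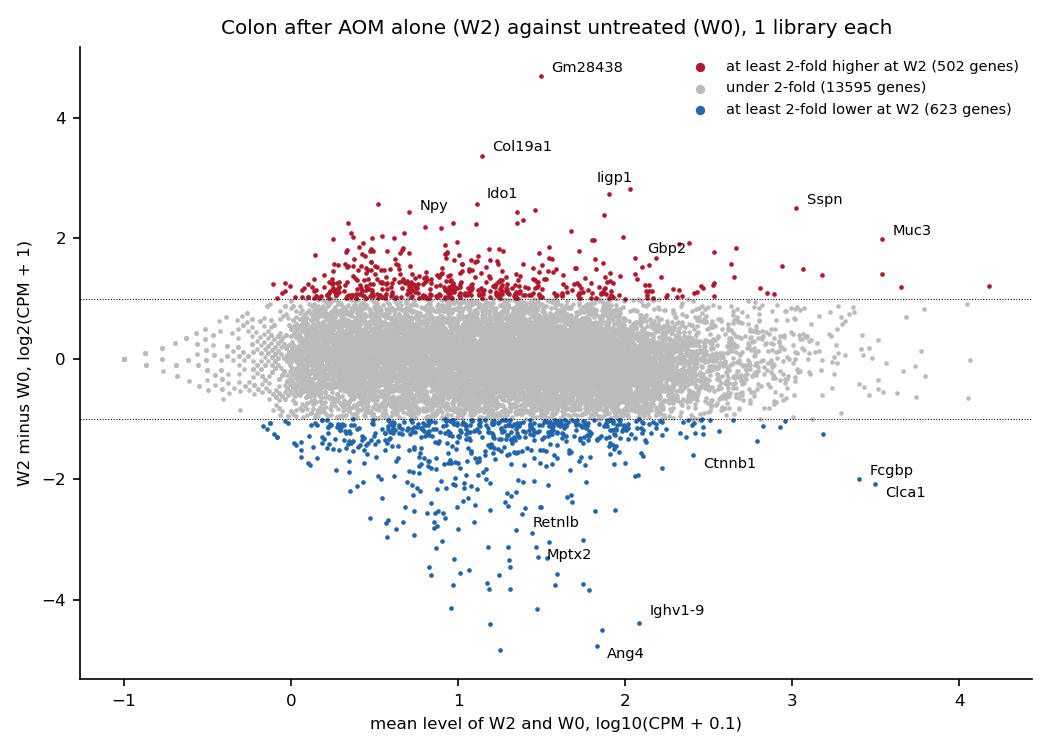
Each point is 1 of the 14720 genes tested. The x axis is the mean level of the W2 and W0 libraries as log10(CPM + 0.1), the y axis is the W2 minus W0 difference of log2(CPM + 1), and dotted lines mark 2-fold. The 502 higher genes are red, the 623 lower genes are blue, and of the 98 genes beyond a 4-fold fall 85 are immunoglobulin segments.

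The promoters of 5 genes that rose are shown because they hold the elements through which interferons and the cell cycle are known to act on such genes. They are RefSeq sequences on GRCm38.p6, each from 250 bases before to 50 bases after the gene start, written along the gene's strand. Capitals mark the core of the interferon-stimulated response element (GAAANNGAA) in Isg15 (chr4:156200769-156201068, minus strand), Gbp2 (chr3:142620413-142620712, plus strand) and Ifit3 (chr19:34583279-34583578, plus strand).
Isg15: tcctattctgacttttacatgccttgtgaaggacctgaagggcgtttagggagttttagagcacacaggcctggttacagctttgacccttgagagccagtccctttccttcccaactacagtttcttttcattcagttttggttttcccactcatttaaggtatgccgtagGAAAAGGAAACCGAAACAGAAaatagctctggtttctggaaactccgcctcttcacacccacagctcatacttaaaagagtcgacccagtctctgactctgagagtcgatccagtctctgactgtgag
Gbp2: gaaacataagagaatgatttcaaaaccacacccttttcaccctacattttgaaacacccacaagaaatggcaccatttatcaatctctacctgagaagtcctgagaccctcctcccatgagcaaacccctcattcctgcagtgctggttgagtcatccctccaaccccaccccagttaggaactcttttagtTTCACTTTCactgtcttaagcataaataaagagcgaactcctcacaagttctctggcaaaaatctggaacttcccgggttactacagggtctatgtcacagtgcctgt
Ifit3: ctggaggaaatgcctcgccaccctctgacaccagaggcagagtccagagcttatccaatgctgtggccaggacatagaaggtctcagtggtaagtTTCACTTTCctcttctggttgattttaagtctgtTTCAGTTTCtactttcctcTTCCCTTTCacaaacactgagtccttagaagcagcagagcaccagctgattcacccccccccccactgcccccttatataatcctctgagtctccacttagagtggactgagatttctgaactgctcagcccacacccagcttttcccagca
In Ube2c (chr2:164769679-164769978, plus strand) and Cdc20 (chr4:118437294-118437593, minus strand), capitals mark the cell cycle homology region (TTTGAA), an element of genes expressed in mitosis, and the CCAAT box (CCAAT), which such promoters often pair with it.
Ube2c: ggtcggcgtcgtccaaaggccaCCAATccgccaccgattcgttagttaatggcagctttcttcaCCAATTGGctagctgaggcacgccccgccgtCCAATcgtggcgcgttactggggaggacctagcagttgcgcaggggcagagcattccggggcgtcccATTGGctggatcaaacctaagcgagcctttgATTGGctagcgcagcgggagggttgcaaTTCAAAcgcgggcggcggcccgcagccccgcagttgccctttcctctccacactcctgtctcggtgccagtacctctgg
Cdc20: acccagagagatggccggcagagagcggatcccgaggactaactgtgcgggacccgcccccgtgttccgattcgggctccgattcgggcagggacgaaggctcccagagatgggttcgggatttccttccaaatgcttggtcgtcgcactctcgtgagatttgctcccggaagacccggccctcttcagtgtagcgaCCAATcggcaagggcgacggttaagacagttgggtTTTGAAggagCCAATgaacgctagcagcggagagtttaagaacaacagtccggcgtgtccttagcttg
Motifs were searched on both strands, and a match is a description of letters, not a binding site. Matches of the interferon element began 78, 72 and 66 bases before the gene start in Isg15, overlapping each other, 58 bases before it in Gbp2, and 155, 121 and 102 bases before it in Ifit3. The cell cycle homology region began 29 bases before the start in Ube2c and 18 in Cdc20. The windows hold 6 CCAAT matches in Ube2c and 2 in Cdc20.

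Genes that act on AOM or repair its lesions were near the background. Of 29 tested genes of AOM and xenobiotic metabolism, 0 were higher and 0 lower by 2-fold, with a median of -0.05. Cyp2e1, the cytochrome known to oxidise AOM, was at 6.08 CPM at W2 and 5.23 CPM at W0, a ratio of 1.16 with an interval of 0.843 to 1.61. Of 20 genes of alkylation and excision repair, 0 were higher and 1 was lower. That one was Apex1, the endonuclease that cuts abasic sites, at 14.8 CPM at W2 and 32.0 CPM at W0, and its locus overlaps Pip4p1 on the other strand. Mgmt, which removes methyl groups from guanine, was at 8.13 CPM (119 counts) at W2 and 4.06 CPM (56 counts) at W0. Its log2 difference of 0.85 was under 2-fold, and its CPM ratio of 2.00 had an interval of 1.44 to 2.80. The glycosylase gene Mpg was listed at 0 in both libraries.

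Of the 8 mismatch repair genes, 1 was higher and 1 was lower. Exo1, the exonuclease of mismatch excision, rose to 18.4 CPM at W2, against 7.77 CPM at W0 (log2 1.15). Pms2, a mismatch repair endonuclease, fell to 0.820 CPM at W2 (12 counts), against 2.98 CPM at W0 (41 counts). Among 24 genes of double-strand break and fork repair, Xrcc6, a subunit of the Ku end-binding complex, rose (36.4 CPM at W2, 16.9 CPM at W0), and the median of 0.33 was above that of all genes. Of 27 tested p53 target genes, 0 were higher and 1 was lower, with a median of -0.05. The arrest gene Cdkn1a was at 122 CPM at W2 and 130 CPM at W0, and Mdm2, the ligase that limits p53, was at 28.1 CPM at W2 and 26.4 CPM at W0. Their ratios were 0.937 (interval 0.877 to 1.00) and 1.07 (0.923 to 1.23). The lower gene was Ei24, at 27.5 CPM at W2 and 60.3 CPM at W0. Of 28 apoptosis regulators only the survival gene Bcl2 changed, at 34.4 CPM at W2 and 12.6 CPM at W0.

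Mitosis genes were higher as a group. Each of the 37 tested members was above its W0 level, the median difference was 0.80, and 6 of 37 rose, against 3.41% of all genes. Ube2c, which loads ubiquitin for the anaphase-promoting complex, was at 118 CPM at W2 and 43.3 CPM at W0, a ratio of 2.72 (interval 2.48 to 2.99). Cdc20, an activator of that complex, was at 62.0 CPM at W2 and 26.5 CPM at W0. The other risers were Cdca8, of the chromosomal passenger complex (log2 1.25), the kinetochore proteins Cenpe (1.17), Cenpf (1.17) and Ndc80 (1.08). The proliferation antigen Mki67 was at 318 CPM at W2 and 183 CPM at W0, and the topoisomerase Top2a was at 198 CPM at W2 and 100 CPM at W0, both under 2-fold on the log2(CPM + 1) scale. Removing the median difference of each exon length decile left the mitosis median at 0.87, and doing so by GC content left it at 0.80. Under median-of-ratios scaling 10 members rose, and with the deposited RPKM values and a pseudocount of 1 it was 2.

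Genes of DNA replication were higher by less. Of 33 tested, 29 were above W0 and 1 passed 2-fold, with a median of 0.43. That one was E2f8, a repressor of the E2F family, at 33.4 CPM at W2 and 15.5 CPM at W0. The replicative helicase subunit Mcm2 was at 106 CPM at W2 and 112 CPM at W0, and the sliding clamp Pcna at 109 CPM at W2 and 86.5 CPM at W0. Of 21 histone genes tested, 1 rose, the linker histone H1f5 (4.44 CPM at W2, 1.16 CPM at W0). The cell cycle homology region was found in 21 of the 31 mitosis promoters with a RefSeq window, in 5 of the 6 of members that rose, and in 6 of 28 promoters of the replication list. It was in 17.9% of all 32851 windows and in 14.8% of the windows of 10725 tested genes. The CCAAT box was in 22 of the 31 mitosis promoters and in 42.4% of the windows of tested genes.

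Among stem and progenitor genes 0 of 21 changed, with a median of 0.22. The crypt stem cell receptor Lgr5 was at 9.97 CPM at W2 and 5.66 CPM at W0, and Ascl2, a stem cell transcription factor, was at 18.8 CPM at W2 and 8.93 CPM at W0, a log2 difference of 0.99. Of 20 Wnt feedback targets 1 rose, Nkd2, an inhibitor of Dishevelled, at 16.5 CPM at W2 and 7.40 CPM at W0, while Axin2 was at 40.1 CPM at W2 and 34.3 CPM at W0. Ctnnb1, the gene of beta-catenin, fell to 126 CPM at W2, against 383 CPM at W0 (log2 -1.60). Its W2 level was below that of every other library, which held 544 CPM at W5, 536 CPM at W8 and 370 CPM at W11. The locus overlaps Ulk4 on the opposite strand, and without a stated strand setting the reads of the 2 genes cannot be told apart.

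Goblet cell genes were lower. Of 30 tested members, 11 fell and 0 rose, with a median of -0.51, and the summed level was 13538 CPM at W2 and 22692 CPM at W0. Ang4, a bactericidal ribonuclease, was at 3.89 CPM (57 counts) at W2 and 131 CPM (1811 counts) at W0, which is 33.8-fold lower with an interval of 25.9 to 44.8. Its W2 level was also the lowest of the series, with 89.6 CPM at W5, 203 CPM at W8 and 49.8 CPM at W11. Clca1, a mucus-processing protease, was at 1195 CPM at W2 and 5053 CPM at W0, and Fcgbp, a mucin-linked gel protein, was at 1004 CPM at W2 and 4002 CPM at W0. Retnlb, a bactericidal resistin-like protein, was at 6.15 CPM at W2 and 41.8 CPM at W0.

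The other goblet genes that fell were Ano7, Capn9, Capn8, Tpsg1, Bcas1, Sytl2 and Slc12a8, with differences between -1.83 and -1.05. Sytl2 acts in granule exocytosis, and Capn8 and Capn9 are calpain proteases of gastrointestinal mucous cells. Not all goblet genes moved. The trefoil peptide gene Tff3 was at 818 CPM at W2 and 808 CPM at W0, the disulfide isomerase Agr2 at 1504 CPM at W2 and 1525 CPM at W0, and the gel-forming mucin Muc2 at 119 CPM at W2 and 122 CPM at W0. Their ratios were 1.01 (interval 0.986 to 1.04), 0.986 (0.967 to 1.00) and 0.978 (0.914 to 1.05). The goblet cell transcription factor Spdef was at 50.5 CPM at W2 and 70.9 CPM at W0.

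Genes that interleukins 4 and 13 induce in gut epithelium and macrophages overlap with the goblet list. Of 20 tested, 4 fell and 0 rose (median -0.55): Retnlb, Clca1, Fer1l6 and Retnla. Fer1l6, a ferlin family gene, was at 14.9 CPM at W2 and 81.6 CPM at W0. Retnla was at 2.32 CPM at W2 and 6.31 CPM at W0, and the receptor subunit Il4ra was at 49.4 CPM at W2 and 52.9 CPM at W0. Enzymes that build mucin glycans were mostly below W0, in 28 of 34 cases, and 3 fell. B4galnt2, which adds the terminal sugar of the Sd(a) antigen, was at 46.0 CPM at W2 and 154 CPM at W0. The sialyltransferases St6gal1 (44.3 CPM at W2, 127 CPM at W0) and St6galnac2 (4.58 CPM at W2, 14.7 CPM at W0) were the others. The antimicrobial list of 25 tested genes had 5 falls and 0 rises. Besides Ang4 and Retnlb these included Mptx1 (902 CPM at W2, 2135 CPM at W0) and Mptx2 (5.26 CPM at W2, 53.2 CPM at W0), pentraxins that can share reads. Reg3b, a bactericidal lectin, had 0 counts at W2 and 2.32 CPM (32 counts) at W0. That is 11.3-fold lower when 3 counts are taken as the floor at W2, and the 95% counting interval begins at 8.70-fold.

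Outside the mitochondrial genome, the largest 2-fold rise in CPM was in Muc3, a membrane-bound mucin of the colonocyte surface. Muc3 was at 5525 CPM at W2 and 1389 CPM at W0, a ratio of 3.98 (interval 3.91 to 4.04). The later libraries were below both, with 1020 CPM at W5, 561 CPM at W8 and 374 CPM at W11. It was the sole riser among 30 absorptive colonocyte genes, of which 4 fell and 23 were below W0 (median -0.37). Those 4 were the transporters Slc20a1 of phosphate (14.6 CPM at W2, 52.5 CPM at W0), Slc13a2 of dicarboxylates (log2 -1.71), the sodium-proton exchanger Slc9a3 (49.6 CPM at W2, 105 CPM at W0) and the sodium channel subunit Scnn1a (82.4 CPM at W2, 173 CPM at W0). The surface genes Lypd8 and Car4 did not pass 2-fold, at 11540 and 1028 CPM at W2 and at 11728 and 1186 CPM at W0.

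Of 11 tested markers of position along the gut 2 rose and 1 fell. The ileal bile acid binding protein Fabp6 rose to 29.2 CPM at W2, against 7.77 CPM at W0. The ileal bile acid transporter Slc10a2 was at 1.57 CPM (23 counts) at W2 and 0.0726 CPM (1 count) at W0, which gives 21.6 as the ratio, within 3.51 to 892 by counting error. Its log2 difference was 1.26. Over the 10 alternative settings whose filter it passed this was 0.21 to 3.28, and 8 of them kept it past 2-fold. The homeobox gene Cdx2, which sets intestinal identity, fell (42.5 CPM at W2, 86.9 CPM at W0), and 0 of 11 posterior Hox genes changed. Of 19 hormone cell genes Pyy, the gene of peptide YY, rose (184 CPM at W2, 78.2 CPM at W0), and Tph1, which makes serotonin, fell (7.99 CPM at W2, 23.2 CPM at W0), as did the somatostatin receptor Sstr1. Of 16 tuft cell genes the channel Trpm5 fell, at 1.09 CPM (16 counts) at W2 and 3.70 CPM (51 counts) at W0. The general epithelial list summed to 28327 CPM at W2 and 34095 CPM at W0, which stands beside all epithelial falls, and its part in them was not tested.

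**Figure D2:**
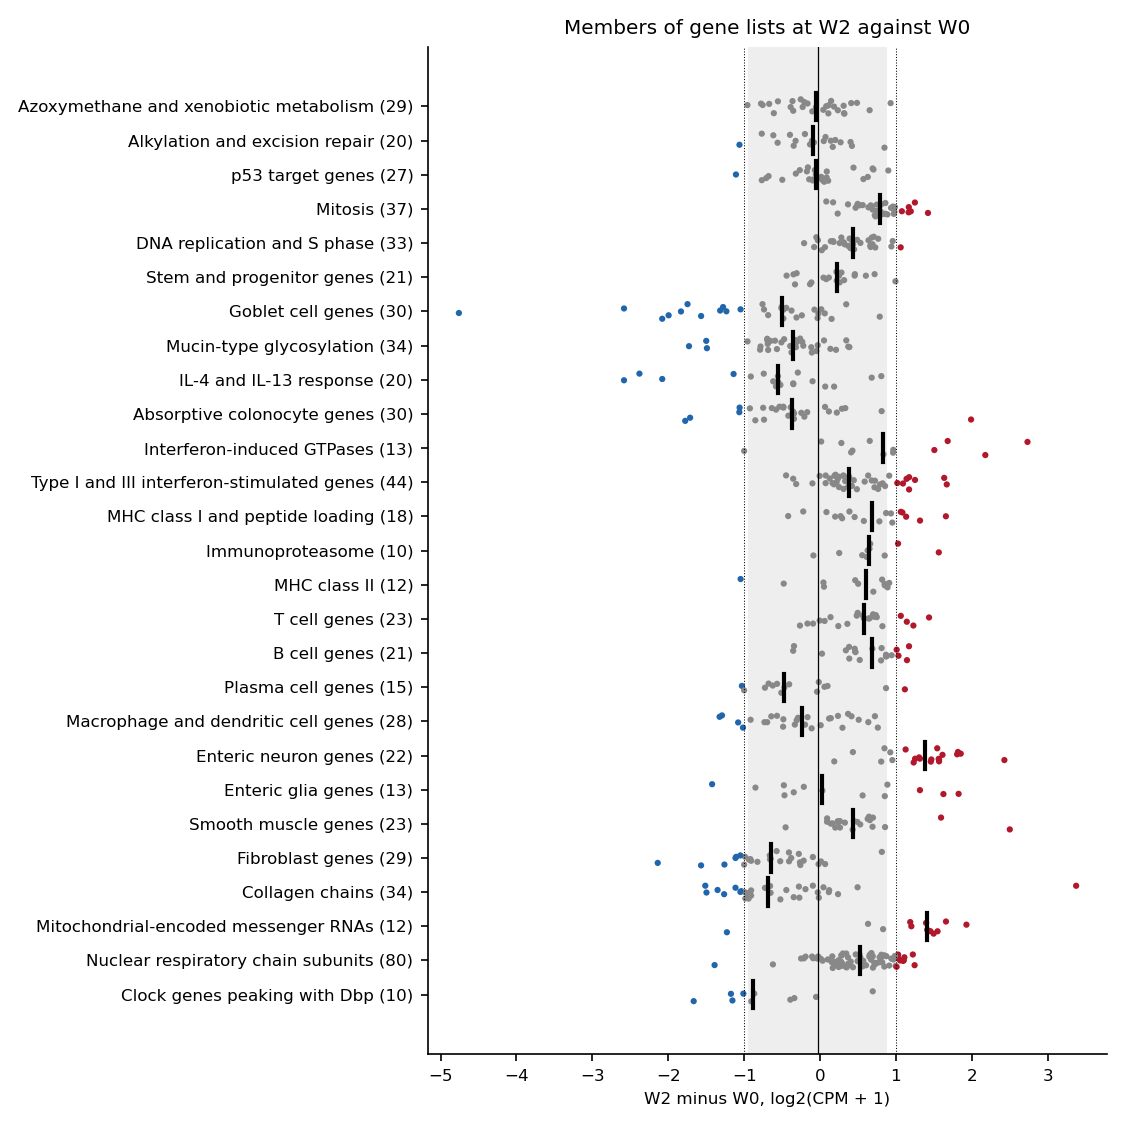
Each point is 1 tested gene of the named list (number of genes in parentheses), at its W2 minus W0 difference of log2(CPM + 1). Red and blue points passed 2-fold (dotted lines), thick bars are list medians, the thin line is the median of all genes, and the grey band spans from -0.94 to 0.87, which holds 90% of all genes. Enteric neuron and mitochondrial-encoded genes have the highest medians, at 1.39 and 1.41, and Ang4 of the goblet list lies at -4.76.

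Genes induced by interferons were higher at W2. Interferon binding activates transcription factors that act on the response element shown above in the promoters of Isg15, Gbp2 and Ifit3, and gamma interferon also induces guanylate-binding proteins and immunity-related GTPases. Of 13 such GTPases tested, 4 rose and 0 fell, with a median of 0.84 and a summed level of 586 CPM at W2 and 215 CPM at W0. The list holds 11 further members, among them Igtp and Tgtp1, that were listed at 0 in both libraries, and 1 tested member, Gbp2b, lay just short of a 2-fold fall (2.73 CPM at W2, 6.46 CPM at W0). Iigp1, which attacks the vacuoles of intracellular parasites, was at 139 CPM at W2 and 20.1 CPM at W0, a ratio of 6.94 (interval 6.12 to 7.89). Gbp2 was at 174 CPM at W2 and 53.6 CPM at W0, Irgm1, a regulatory GTPase of this family, at 41.9 CPM at W2 and 14.1 CPM at W0, and Gm4951, a related GTPase, at 13.4 CPM at W2 and 2.18 CPM at W0. With no filter on low values, which brings in the members at 0, the median was 0.02.

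Of 44 genes stimulated by type I and III interferons, 8 rose, 0 fell and 39 were above W0, with a median of 0.39. Isg15, a ubiquitin-like modifier, was at 233 CPM at W2 and 72.5 CPM at W0. Herc6, the main mouse ligase for Isg15, was at 14.8 CPM at W2 and 4.06 CPM at W0. The antiviral genes Ifit1 (72.8 CPM at W2, 30.0 CPM at W0) and Ifit3 (27.0 CPM at W2, 11.4 CPM at W0) rose as well, the second beside its near-identical copy Ifit3b, with which it can share reads. The remaining risers were Ifi27l2a (1.17), the tetherin gene Bst2 (1.09) and Ifi44 (1.02). With a pseudocount of 5 the count of rises was 5. Several antiviral genes stayed under 2-fold, such as Oas1a at 117 CPM at W2 and 105 CPM at W0.

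Genes of the interferon signal itself had a median of -0.05 over 28 tested members, with 4 rises. Ido1, Cxcl9 and Il18bp were among the rises, while the signal transducer Stat2 was at 71.2 CPM at W2 and 71.0 CPM at W0. Ido1, which degrades tryptophan, was at 22.7 CPM at W2 and 2.98 CPM at W0, with 4.37 CPM at W5, 5.23 CPM at W8 and 1.94 CPM at W11. Cxcl9, a chemokine for activated T cells, was at 24.0 CPM at W2 and 7.04 CPM at W0. Il18bp, which binds interleukin 18, was at 38.7 CPM at W2 and 6.31 CPM at W0, and its locus overlaps Numa1 on the other strand. The gamma interferon gene Ifng had 0.0683 CPM at W2 and 0.0726 CPM at W0, which is 1 count in each, and no fold is given. Ubd, an interferon-inducible ubiquitin-like modifier, was at 41.1 CPM at W2 and 7.48 CPM at W0.

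Genes of MHC class I and its peptide loading were also higher. Of 18 tested, 5 rose and 0 fell, with a median of 0.68, although B2m, the invariant light chain, was listed at 0 in both libraries. The risers were the peptide transporter subunit Tap1 (168 CPM at W2, 66.8 CPM at W0) and H2-Q7, H2-Q10, H2-Q6 and H2-Q4, which can share reads. The classical class I genes were under 2-fold, with H2-K1 at 2380 CPM at W2 and 1593 CPM at W0 and H2-D1 at 2124 CPM at W2 and 1234 CPM at W0. Of 10 immunoproteasome list members, 2 rose: the catalytic subunit Psmb9 (208 CPM at W2, 69.5 CPM at W0) and the activator subunit Psme2 (235 CPM at W2, 115 CPM at W0). Tap1 and Psmb9 lie on opposite strands and overlap. The standard subunits Psmb5 and Psmb6, whose places Psmb8 and Psmb9 take in immunoproteasomes, differed by 0.85 and 0.66 and did not pass 2-fold. Of 12 class II genes 0 rose and 1 fell, the promoter factor Rfx5 (4.37 CPM at W2, 10.1 CPM at W0), and the median was 0.60.

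The response element core was in 25 of the 40 promoter windows of the GTPase and stimulated gene lists, and in 8 of the 9 windows of members that rose. It was in 8.88% of the windows of tested genes. In the class I and immunoproteasome lists it was in 3 of 24 windows and in 0 of the 7 windows of members that rose. The gamma-activated element (TTCNNNGAA) was in 9 of the 40 interferon list windows, and in 8.30% of those of tested genes.

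T and B cell genes were mostly above W0, in 19 of 23 and 19 of 21 cases. Of 23 T cell genes 4 rose and 0 fell (median 0.58): the receptor constant segment Trbc2, the signalling chains Cd247 and Cd3d, and the interleukin 2 receptor chain Il2ra. They were low in both libraries. Trbc2 was at 9.77 CPM (143 counts) at W2 and 2.98 CPM (41 counts) at W0, and Cd3d at 4.10 CPM (60 counts) at W2 and 1.31 CPM (18 counts) at W0. Cd4 was at 12.8 CPM at W2 and 14.5 CPM at W0, and 0 of 12 cytotoxic lymphocyte genes changed. Of 21 B cell genes 4 rose and 0 fell (median 0.69), namely the IgM receptor Fcmr, the lineage factor Ebf1, and the receptor components Vpreb3 and Cd79b. Cd79b was at 71.6 CPM at W2 and 35.1 CPM at W0, and the antigen receptor constant genes Ighm and Ighd, under 2-fold, were at 172 and 37.8 CPM at W2 and at 93.8 and 21.2 CPM at W0. With a pseudocount of 5, 0 T cell and 0 B cell genes passed 2-fold.

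Of 28 macrophage and dendritic cell genes 11 were above and 17 below W0 (median -0.24), 4 fell and 0 rose. The 4 were the growth factor receptor Csf1r (38.5 CPM at W2, 97.7 CPM at W0), the surface proteins Adgre1 and Mrc1, and the chemokine receptor Cx3cr1.

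Of 25 tested chemokines 3 rose and 1 fell, with 16 above and 9 below W0 (median 0.14). The sum of the whole list was lower, at 436 CPM at W2 and 545 CPM at W0. Besides Cxcl9, given above, the risers were Ccl20 and Cxcl1. Ccl20, which attracts cells to gut lymphoid follicles, was at 13.1 CPM at W2 and 5.52 CPM at W0. Cxcl1, a neutrophil attractant, was at 4.37 CPM (64 counts) at W2 and 1.52 CPM (21 counts) at W0. Cx3cl1, the ligand of Cx3cr1, fell to 57.9 CPM at W2, against 133 CPM at W0.

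Immunoglobulin variable segments were lower as a class. Plasma cells of the gut mostly secrete IgA, each from 1 rearranged heavy chain and 1 rearranged light chain variable segment. Of 188 tested immunoglobulin and T cell receptor segments 139 fell, which is 73.9%, and 3 rose. These falls were 22.3% of all falls, and without them 484 of 14532 genes, or 3.33%, were lower. Of 88 heavy chain variable segments 74 fell and 0 rose (median -2.15), and their summed level was 201 CPM at W2 and 1926 CPM at W0, or 9.60-fold lower. Of 83 kappa variable segments 61 fell and 0 rose (median -1.54), with a sum of 454 CPM at W2 and 1876 CPM at W0. Ighv1-9, the most abundant heavy segment at W0, was at 10.2 CPM (149 counts) at W2 and 233 CPM (3212 counts) at W0. It was 12.1% of the heavy variable sum at W0. The most abundant heavy segment at W2 was a different one and held 12.6% of the sum there, so no single segment carried the class at either time.

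The constant segments differed by less than the variable ones. The 7 heavy constant segments summed to 3877 CPM at W2 and 5411 CPM at W0, and 0 of 7 fell. The IgA segment Igha was at 3434 CPM at W2 and 5084 CPM at W0, a ratio of 0.676 (interval 0.668 to 0.683). Ighg3 rose, at 26.7 CPM at W2 and 11.8 CPM at W0. Jchain, which joins IgA dimers, fell to 599 CPM at W2, against 1223 CPM at W0, and the plasma cell surface protein Sdc1 was at 183 CPM at W2 and 366 CPM at W0, just under 2-fold. Of 15 plasma cell genes 1 fell and 1 rose, with a median of -0.47, and Mzb1 and the kappa constant gene Igkc were listed at 0 in both libraries. The heavy variable sum in the later libraries was 4190 CPM at W5, 2869 CPM at W8 and 1416 CPM at W11, so the W2 library held the lowest of the 5, as it did for the heavy constant sum (9052 CPM at W5, 10449 CPM at W8 and 7983 CPM at W11). How reads of closely similar, rearranged and mutated segments were assigned is not given in the sources used here, and its part in the gap between variable and constant segments was not tested.

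**Figure D3:**
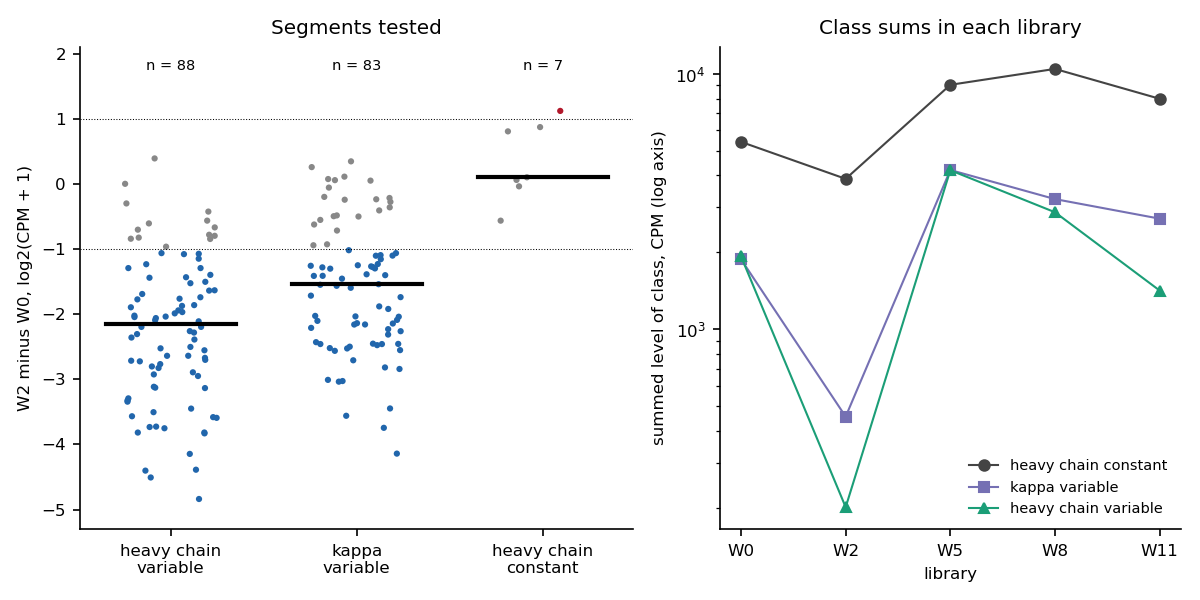
Left, each point is 1 tested immunoglobulin segment at its W2 minus W0 difference of log2(CPM + 1), with red and blue for a 2-fold rise or fall, thick bars for class medians and dotted lines at 2-fold. Right, the summed CPM of each class in the 5 libraries on a log axis. All 3 sums are lowest at W2, where the heavy variable class is at 201 CPM and the heavy constant class at 3877 CPM, against 1926 and 5411 CPM at W0.

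Enteric neuron genes were higher throughout the list. The enteric nervous system lies in the submucosa and between the muscle layers and controls movement and secretion of the gut. Of 31 listed genes 22 passed the filter on low values, all 22 were above W0, 16 rose and 0 fell. That filter averages the 5 libraries with W2 among them, so low genes that are high at W2 pass it more readily. The count of 22 is in part shaped by this. The median difference was 1.39, and the sum was 523 CPM at W2 and 209 CPM at W0. Of the 9 untested members, 3 (Nefl, Tubb3 and Slc18a3) were listed at 0 in both libraries and the others were low, such as the acetylcholine-making enzyme Chat at 1.64 CPM at W2 and 1.02 CPM at W0.

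The neuronal risers span several roles. Prph, a neurofilament-like protein, was at 55.4 CPM (811 counts) at W2 and 14.6 CPM (201 counts) at W0, a ratio of 3.80 (interval 3.25 to 4.45). Nos1, which makes the relaxing transmitter nitric oxide, was at 47.7 CPM at W2 and 15.5 CPM at W0. Among peptide transmitters, Npy was at 9.08 CPM (133 counts) at W2 and 0.871 CPM (12 counts) at W0, a ratio of 10.4 (5.78 to 20.7), Gal was at 4.17 CPM at W2 and 1.09 CPM at W0, and Cartpt was at 3.82 CPM at W2 and 0.653 CPM at W0. Slc5a7, the choline transporter of cholinergic neurons, was at 7.58 CPM at W2 and 1.45 CPM at W0. It was at 1.37 CPM at W5, 0.672 CPM at W8 and 0.268 CPM at W11, so its mean for the filter leans on W2. Of the genes for vesicle release, Snap25 was at 27.3 CPM at W2 and 9.29 CPM at W0, and Syt1 at 19.4 CPM at W2 and 5.66 CPM at W0. Ret, a receptor for glial-derived growth factors, was at 33.1 CPM at W2 and 12.7 CPM at W0.

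The remaining risers of the list were Ngfr, Nefm, Gap43, Elavl4, Uchl1 and Stmn3, between 1.13 and 1.82. Members under 2-fold included Vip, a secretion-inducing peptide, at 95.7 CPM at W2 and 48.9 CPM at W0, and the tachykinin gene Tac1 at 18.8 CPM at W2 and 13.6 CPM at W0. Outside the list, the largest rises of all genes included the nicotinic receptor subunit Chrna3 (15.8 CPM at W2, 2.54 CPM at W0), the vesicle protein Sv2c (10.9 CPM at W2, 1.60 CPM at W0) and the axon growth protein Dpysl2 (77.3 CPM at W2, 16.9 CPM at W0). Map1b, a neuronal microtubule protein, was at 104 CPM at W2 and 25.7 CPM at W0. Subtracting decile medians by exon length gave a neuron list median of 1.41, and by GC content also 1.41, while the range over all alternatives was 0.74 to 1.63. With a pseudocount of 5 the count of rises was 10, and with the deposited RPKM values and a pseudocount of 1 it was 4.

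**Figure D4:**
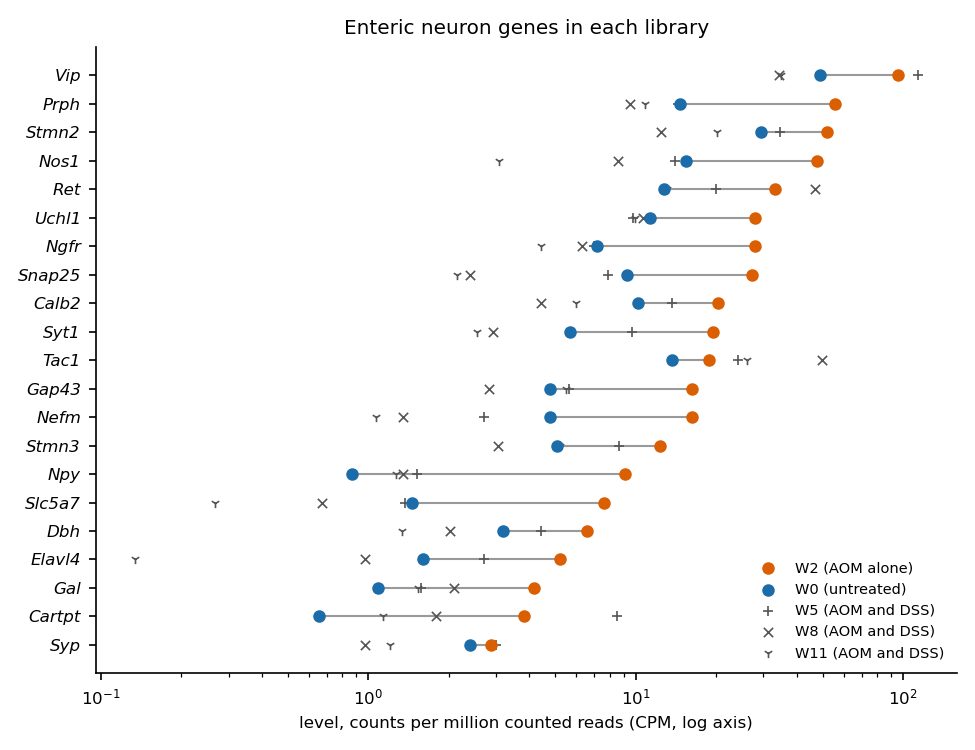
Levels of 21 of the 22 tested enteric neuron genes in CPM on a log axis, with W2 in orange, W0 in blue, a grey line joining them, and marks for the W5, W8 and W11 libraries. The orange point lies right of the blue point for each gene shown, as with Prph at 55.4 CPM at W2 and 14.6 CPM at W0.

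The neighbouring cells of the muscle coat moved by less, and in both directions. Of 23 smooth muscle genes 22 were above W0 and 2 rose (median 0.43), with a sum of 15797 CPM at W2 and 10437 CPM at W0. The risers were Sspn, a member of the dystrophin complex, at 1798 CPM at W2 and 317 CPM at W0, and Tagln, an actin-binding protein, at 111 CPM at W2 and 36.2 CPM at W0. The contractile genes Myh11, Des and Actg2 differed by 0.63, 0.66 and 0.65, and Acta2 by 0.33. Of 13 glial genes 3 rose, among them the adhesion gene Ncam1 (26.3 CPM at W2, 7.84 CPM at W0) and the filament gene Gfap (9.63 CPM at W2, 3.27 CPM at W0). The ectonucleotidase Entpd2 fell, and the glial median was 0.03, with the lineage factor Sox10 at 2.87 CPM at W2 and 3.48 CPM at W0. Of the 8 genes of interstitial cells of Cajal, the pacemakers of the gut, the channel Ano1 (127 CPM at W2, 299 CPM at W0) and the receptor Kit (22.7 CPM at W2, 48.0 CPM at W0) fell, and Hand1 rose. How much muscle coat each piece of tissue held is not given, and its part in the neuronal rise was not tested.

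Fibroblast and matrix genes were lower. Of 29 fibroblast genes 26 were below W0 and 6 fell (median -0.65): the surface protein Cd34 (2.46 CPM at W2, 14.2 CPM at W0), the matrix protein Dpt (10.7 CPM at W2, 33.5 CPM at W0), the gelatinase Mmp2 (50.5 CPM at W2, 122 CPM at W0), the collagens Col3a1 and Col6a2, and the growth factor receptor Pdgfra. Of 34 collagen chains 7 fell and 1 rose (median -0.68). Col3a1, the main chain of type III collagen, was at 422 CPM at W2 and 914 CPM at W0, and Col1a1 was at 180 CPM at W2 and 192 CPM at W0. The one rise was Col19a1, a minor chain, at 26.0 CPM (380 counts) at W2 and 1.60 CPM (22 counts) at W0, a ratio of 16.3 (interval 10.6 to 26.3). At W5 it was near its W2 level, and it was at 2.39 CPM at W8 and 3.95 CPM at W11.

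Of 24 mesenchymal signals of the crypt niche 19 were below W0, 2 fell and 0 rose (median -0.39). The 2 were Bmp5, a bone morphogenetic protein (6.69 CPM at W2, 22.1 CPM at W0), and the Wnt ligand Wnt2b (11.2 CPM at W2, 28.4 CPM at W0). The BMP antagonist Grem1 was at 48.9 CPM at W2 and 49.4 CPM at W0. Of 24 endothelial genes 19 were below W0 (median -0.41), and the list summed to 431 CPM at W2 and 617 CPM at W0. The receptors Kdr and Tek fell and Ackr1, a chemokine receptor of venules, rose (8.74 CPM at W2, 2.76 CPM at W0). Of 8 tested pericyte genes, which mark mural cells around vessels, 1 fell and 0 rose (median -0.13), with 3 above and 5 below W0. Their sum was 199 CPM at W2 and 173 CPM at W0. The one that fell was the receptor Notch3, at 1.37 CPM at W2 and 9.07 CPM at W0. In the lists for fat, mesothelium, skeletal muscle and pancreas, which mark other tissue a sample could hold, 0 of 12, 0 of 5, 0 of 5 and 0 of 2 tested genes changed.

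Messenger RNAs of the mitochondrial genome held more of the W2 library. Mitochondrial genes took 4.87% of counts at W2 and 2.19% at W0. Of 12 tested messenger RNAs 9 rose and 1 fell (median 1.41), with the complex I subunit mt-Nd1 at 4989 CPM at W2 and 1872 CPM at W0 and mt-Cytb of complex III at 6224 CPM at W2 and 2728 CPM at W0. The one fall was mt-Nd3, at 4.92 CPM at W2 and 12.8 CPM at W0, which was at 137 CPM at W5. The unprocessed pseudogenes Gm28438 (60.9 CPM at W2, 1.38 CPM at W0) and Gm28661 (188 CPM at W2, 25.8 CPM at W0) also rose, and are given here outside the rule for named genes. The handling of multi-mapped reads is not stated, and its part in the levels of mt-Nd3 and these pseudogenes was not tested.

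Nuclear genes of the respiratory chain and of ribosomes were higher by less than 2-fold. Of 80 respiratory subunits 70 were above W0, 10 rose and 1 fell (median 0.53), with Cox6b1 of complex IV at 467 CPM at W2 and 200 CPM at W0, and Ndufs1 of complex I falling to 30.3 CPM at W2, against 80.8 CPM at W0. Cytosolic ribosomal proteins had 8 rises and 0 falls of 76 (median 0.48), and mitochondrial ribosomal proteins 5 rises and 0 falls of 71 (median 0.49). Such genes are short, and the shortest exon length decile of all genes had a median of 0.15. With decile medians by length subtracted the 3 list medians were 0.41, 0.45 and 0.46.

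Genes of fatty acid oxidation and cholesterol synthesis were mostly below W0, in 26 of 32 and 18 of 24 cases, while those of fatty acid and lipid synthesis were near the background. In the list of fatty acid and lipid synthesis 0 of 22 changed, with 10 above and 12 below W0 and a median of -0.11. Of 32 genes of PPAR targets, fatty acid oxidation and ketogenesis 4 fell and 0 rose (median -0.27): the nuclear receptor Ppara (3.69 CPM at W2, 14.0 CPM at W0), the mitochondrial carrier enzyme Cpt1a (174 CPM at W2, 412 CPM at W0), and the oxidation enzymes Acadvl and Eci2. Of 24 cholesterol synthesis genes 3 fell and 0 rose (median -0.40). Among them Lss, which closes the sterol rings, was at 10.7 CPM at W2 and 38.6 CPM at W0, and Fdps, which makes farnesyl diphosphate, was at 1.71 CPM at W2 and 5.37 CPM at W0. Hmgcs1, an early enzyme of the pathway, was under 2-fold, at 165 CPM at W2 and 141 CPM at W0. The glucose transporter Slc2a1 fell (18.9 CPM at W2, 51.8 CPM at W0), and Upp1, which splits uridine, rose (524 CPM at W2, 153 CPM at W0).

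Clock genes that peak together with Dbp were lower. The circadian clock is a feedback loop in which Bmal1 and Clock drive such genes, whose products then act back on it, and gut levels depend on the hour of death and on feeding. Of 10 tested, 9 were below W0, 4 fell and 0 rose (median -0.89). Nr1d1, a repressor of Bmal1, was at 7.44 CPM at W2 and 25.8 CPM at W0, and its locus overlaps Thra on the other strand. Nr1d2 was at 22.2 CPM at W2 and 51.3 CPM at W0. Dbp was at 5.81 CPM at W2 and 12.7 CPM at W0, and Tef, a relative of it, at 62.2 CPM at W2 and 139 CPM at W0. Of 7 genes that peak with Bmal1, 1 rose and 1 fell (median 0.14), and Bmal1 itself, listed as Arntl, was at 35.2 CPM at W2 and 40.7 CPM at W0. The hour of sampling is not given, and its part in these differences was not tested.

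Stress lists held few changes, with 0 of 23 NRF2 targets and 0 of 22 genes of the integrated stress response changed (medians 0.03 and 0.21). Of 18 hypoxia targets 2 fell, among them Slc2a1, with 14 below W0 and a median of -0.21. Of 18 heat shock genes 13 were above W0 and 1 fell (median 0.31). The metal-binding metallothioneins rose, with Mt1 at 189 CPM at W2 and 65.2 CPM at W0 and Mt2 at 16.1 CPM at W2 and 3.48 CPM at W0. Hspa1b, an inducible chaperone, fell to 108 CPM at W2, against 241 CPM at W0.

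**Figure D5:**
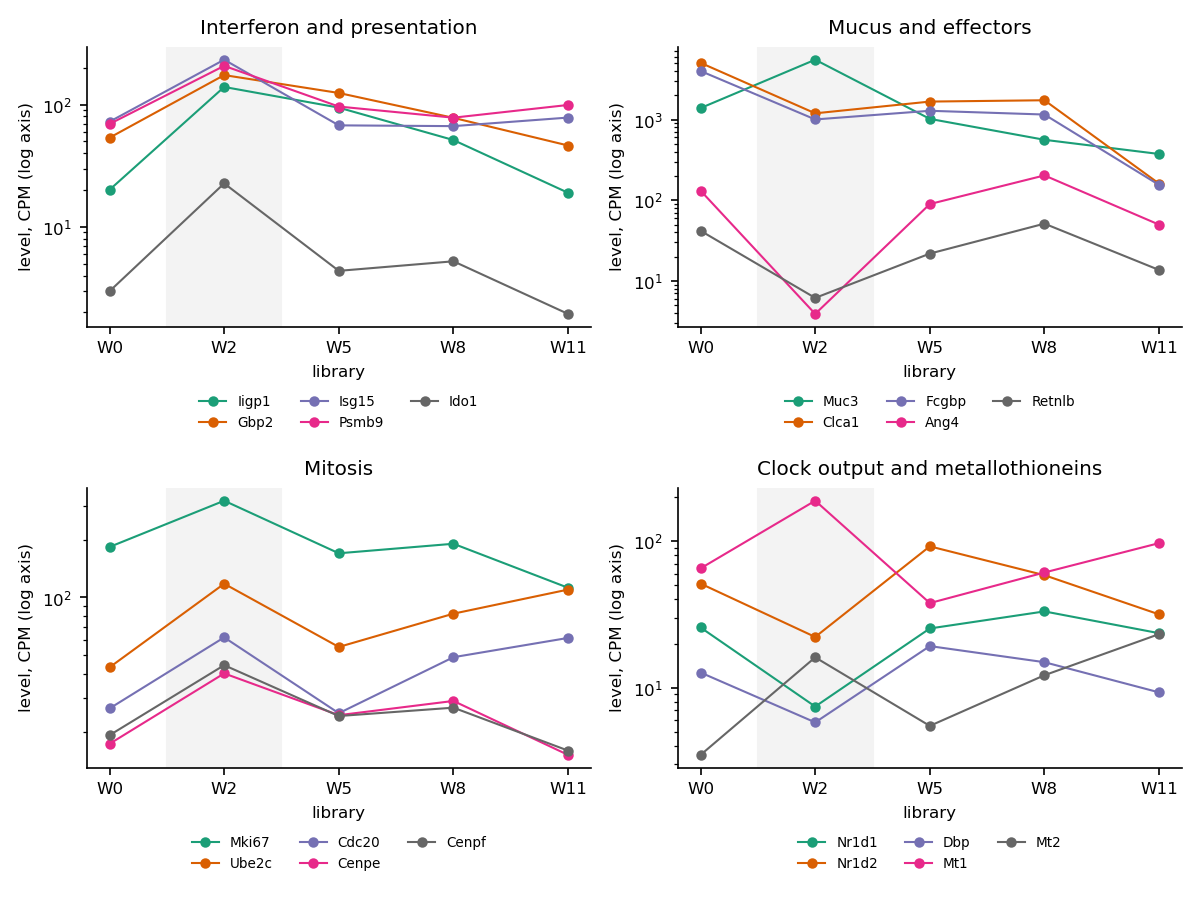
Levels of named genes in CPM on log axes in the 5 libraries, which are joined for reading only, with the W2 library shaded. Iigp1, Muc3, Mki67 and Mt1 peak at W2, at 139, 5525, 318 and 189 CPM, while Ang4 and Nr1d1 are lowest there, at 3.89 and 7.44 CPM.

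The W2 levels were set beside the whole series. The W2 library held 95 genes at least 2-fold above each of the other 4 libraries (0.645% of those tested) and 180 at least 2-fold below each (1.22%). The W0 library held 23 and 29 such genes, W5 86 and 39, W8 78 and 10, and W11 171 and 564. Genes furthest above at W2 included Sv2c, Npy, Muc3, Ido1, Prph and Fabp6, and those furthest below included Ang4, Reg3b, the proprotein convertase Pcsk6, Ctnnb1, Nr1d1 and the lysosomal protease Ctsd. Ctsd was at 23.2 CPM at W2 and 68.3 CPM at W0, with 90.0 CPM at W5, 115 CPM at W8 and 104 CPM at W11. Of the 502 genes higher at W2, 159 were nearer to the W2 than to the W0 level at W5, 147 at W8 and 203 at W11. Of the 623 lower genes it was 114 at W5, 145 at W8 and 355 at W11. Both sets were chosen for a W2 level far from W0 in single libraries. Later levels nearer to W0 are in part expected from that choice, and no share over all genes was computed, so no return is read from these counts.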

How the data were processed

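RNA was extracted from colon with TRIzol for 5 libraries (W0, W2, W5, W8 and W11), and TruSeq was the library kit, per the labels' protocols. Per the submitters' processing notes, featureCounts, HISAT2 2.2.1 and FastQC were used. Those notes list both GRCm38 and GRCm39, so the build is uncertain. The sources used here state no strand setting, annotation, pooling or handling of multi-mapped reads. The deposited columns headed TPM hold whole numbers with differing totals and were used as counts. The deposited columns headed count hold RPKM-like values, which were an alternative. The ratio of both kinds of column was the same within 1% of W0 in all 2620 genes over 5 RPKM in each library.

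Counts were divided by library totals to give CPM. The filter was 1 CPM or more on average over the 5 libraries, and a difference of log2(CPM + 1) of at least 2-fold was called. Ratios have exact conditional (Clopper-Pearson) 95% intervals, and 3 counts are the floor (0.205 CPM at W2, 0.218 CPM at W0). Both cover counting error only.

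The gene lists and the members named were chosen with earlier results of these data known. Names were drawn from the 15 largest rises and falls among genes of at least 5 CPM in the higher library. They were also drawn from the 10 largest in CPM, the 10 furthest above and below the other 4 libraries, and list members past 2-fold or that define a list. Not every gene of these sets is given. Clone-named, pseudogene, immunoglobulin, T cell receptor, ribosomal, Y-linked and mitochondrial genes stay out of the first 3. Overlaps come from GENCODE M21, and promoters from RefSeq GRCm38.p6. The calling step was run on simulated counts with known folds. These held counting error only and no variation between animals, so they cannot support the calls made here. Tools were Python 3.11.15, numpy 2.4.6, pandas 2.3.3, scipy 1.17.1, matplotlib 3.10.9, R 4.3.3 and edgeR 4.0.16, used for trimmed mean (TMM) scaling alone. Some genes are not reported here by name.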

Additional observations from a re-analysis of the deposited data

How the results depend on the processing

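The median of 54 of 72 lists kept its sign, and that of the other 18, all within 0.24 of 0, changed sign under at least 1 setting. No direction reversed among 218 genes checked. Those genes were chosen as past 2-fold in the same W2 and W0 libraries. The settings can shrink such a difference but hardly reverse it, so this adds no support. There were 9 other settings and 3 more chosen after seeing the data (RPKM with a pseudocount of 0.1, and removal of the exon length or GC trend). Of the 218 genes, 94 passed 2-fold in every one of these. The counts of 502 higher and 623 lower genes became 865 and 947 with a pseudocount of 0.1, and 169 and 324 with a pseudocount of 5. With the deposited RPKM values and a pseudocount of 1 they were 147 and 282, and a mean of at least 5 CPM left 325 higher genes. The 95 genes above the other 4 libraries became 160 and 37 with those pseudocounts, 48 with the stricter filter and 21 with RPKM, and the 180 below became 325 and 91. Centring on the median of all genes gave 544 higher and 591 lower. The TMM and median-of-ratios factors of W2 relative to W0 were 0.987 and 0.968. No paired analysis was possible because each time point has 1 library. Genes at few counts are limited by depth, and genes at 0 in both libraries are not read as absent.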

Other observations

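The following genes were chosen after their values were seen. Further interferon-associated genes were at least 2-fold higher at W2. Cd274, the gene of the checkpoint ligand PD-L1, was at 9.49 CPM at W2 and 3.99 CPM at W0, and Tnfsf10, a death ligand, was at 34.5 CPM at W2 and 16.0 CPM at W0. Ifi206 was at 3.76 CPM at W2 and 0.363 CPM at W0, Apol9b at 23.1 CPM at W2 and 10.5 CPM at W0, and Ifitm3, which blocks virus entry, at 197 CPM at W2 and 97.1 CPM at W0. Not every gene of this kind was higher. Rnf213, a large ubiquitin ligase, was at 62.2 CPM at W2 and 135 CPM at W0.

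Of the 11 tested germinal centre genes 0 changed, with a median of 0.03. A few genes known from lymphoid tissue, picked for their values, were higher. Glycam1, a ligand made by high endothelial venules, was at 3.89 CPM at W2 and 1.23 CPM at W0. The B cell factors Bach2 and Pou2f2 were at 15.9 and 12.8 CPM at W2 and at 5.15 and 5.01 CPM at W0. Gp2, a receptor of M cells over lymphoid follicles, was at 2.94 CPM at W2 and 0.726 CPM at W0. Neuronal genes outside the list included the serotonin receptor subunits Htr3a (4.23 CPM at W2, 0.290 CPM at W0) and Htr3b (3.55 CPM at W2, 0.581 CPM at W0), and the axonal motor Kif5a (22.9 CPM at W2, 9.36 CPM at W0).

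Aldh1a3, a retinoic acid-making enzyme, was at 9.08 CPM at W2 and 22.7 CPM at W0, with 63.1 CPM at W5, 145 CPM at W8 and 114 CPM at W11. The W2 library also had Il22ra1, the epithelial interleukin 22 receptor chain, at 12.1 CPM against 31.0 CPM at W0, and Pck1, an enzyme of glucose synthesis, at 49.5 CPM against 190 CPM at W0. Lars2 and Cdk8 were at 14538 and 5948 CPM at W2 and at 7770 and 3692 CPM at W0.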
